A study of Mus musculus with 59 samples.

Results

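The genes described here are 9 of the 47643 gene symbols in the deposited expression table. They are Ankrd1, Ankrd2, Ankrd23, Csrp3, Xirp1, Rrad, Igfn1, Mybph and Actc1, and all 9 were found under these symbols. They were picked by name as load-sensing and remodelling genes of muscle whose melanoma effect was not the same in diaphragm, tibialis anterior and soleus. Their melanoma effects in mock-injected diaphragm, tibialis anterior and soleus, and the differences between those effects, are therefore given as description without a test. Adjusted p for these genes are printed only for the diaphragm after recombinant Fibcd1, and they are not independent evidence.

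Expression was measured by RNA-seq in muscles of female NCI Ath/nude mice at 4 months of age, all of them athymic and all bearing a human melanoma. The cachectic (CAC) melanoma makes muscle waste and the non-cachectic (NON-CAC) melanoma does not, and each is a single patient-derived xenograft stock, so that cachexia and the identity of the tumour cannot be told apart. No mouse without a tumour is among the 59 libraries. Diaphragm (Dia) was taken from CAC mice after mock injection (n = 10) or recombinant Fibcd1 (rFibcd1, n = 10) and from NON-CAC mice after mock injection (n = 9) or rFibcd1 (n = 10). In the study's methods the mock injections were the BSA vehicle, and both were given into the peritoneum in the last week of tumour growth. Tibialis anterior (TA) and soleus (SOL) came from CAC and NON-CAC mice (n = 5 in each group), whose labels name no injection. Expression is given as TPM (transcript abundance scaled for transcript length and to the same total in each library), and libraries are named by group and by the number in their column heading.

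Striated muscle reads its own load through proteins anchored to the sarcomere. Titin spans from the Z-disc to the M-band, and the muscle ankyrin repeat proteins (Ankrd1, Ankrd2 and Ankrd23) bind its elastic I-band part and can also enter the nucleus. Csrp3 (muscle LIM protein) and Xirp1 (Xin) sit at the Z-disc, at cell junctions or at sites of damage, and genes of this class are known to be induced by stretch, overload, injury and denervation. Actc1, the actin of the heart, is expressed in skeletal muscle before birth and during regrowth of fibres.

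Stretch- and load-responsive promoters are known for the M-CAT element, bound by TEAD factors, and for the CArG box, bound by SRF. RefSeq promoter windows on GRCm38.p6 were at hand for 7 of the 9 genes, as 9 windows because Ankrd23 and Csrp3 have 2 each. Xirp1 and Rrad are not in that table. The 250 bases before each start were searched. The M-CAT core (CATTCC, either strand) was found in windows of Ankrd1, Ankrd23 and Mybph, against 12.6% of the 32851 windows in the table. That of Ankrd1 held it at 2 places, at 210 to 205 and at 123 to 118 bases before the start, and 30 bases around each are shown with the core in capitals, because Ankrd1 was higher in every CAC soleus library than in every NON-CAC one.
Ankrd1 chr19:36120037-36120066 (minus strand): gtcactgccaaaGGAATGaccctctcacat
Ankrd1 chr19:36119950-36119979 (minus strand): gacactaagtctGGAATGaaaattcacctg
Mybph, the gene with the largest ratio of medians in soleus among the 9, held the core at 73 to 68 bases before the start, in capitals here.
Mybph chr1:134193198-134193447 (plus strand): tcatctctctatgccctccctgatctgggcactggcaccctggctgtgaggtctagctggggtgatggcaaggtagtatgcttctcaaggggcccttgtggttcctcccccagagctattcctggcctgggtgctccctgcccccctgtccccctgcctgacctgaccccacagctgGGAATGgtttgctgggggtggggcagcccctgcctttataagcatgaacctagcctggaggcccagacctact
The CArG box was found in the window of Actc1 alone among the 7 genes, at 47 to 38 bases before the start, against 1.47% of all windows. The 238 bases upstream of the first exon are shown with the box in capitals, because Actc1 was the member that was lower in CAC libraries of 2 muscles.
Actc1 chr2:114052888-114053125 (minus strand): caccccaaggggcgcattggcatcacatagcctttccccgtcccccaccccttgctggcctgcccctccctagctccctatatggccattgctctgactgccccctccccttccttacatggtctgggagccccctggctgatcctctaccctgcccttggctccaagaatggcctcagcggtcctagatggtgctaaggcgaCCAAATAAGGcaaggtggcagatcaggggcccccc
No MEF2 box (2.92% of all windows) and no AP-1 site (TGANTCA, 6.75%) was found in these windows. A TATA box (TATAAA, either strand, 12.4%) was found before Ankrd2, at 29 to 24 bases, and before Mybph, at 39 to 34 bases. The Mybph and Actc1 stretches lie outside annotated exons (GENCODE M21), that of Actc1 within an intron of a longer transcript, while those of Ankrd1 lie within an annotated first exon. These matches are letters in a window and were not tested as binding sites.

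The libraries were examined before the genes. The labelled muscles bore their defining myosins: Myh4, the fastest myosin, averaged 12090 TPM in TA, and Myh7, the slow myosin, averaged 5770 TPM in SOL. Diaphragm held both, at 355 and 411.9 TPM. SOL CAC column 7 was the exception, with Myh4 at 4989 TPM. Heart atrial markers bear on Actc1 and Csrp3, which the heart also makes: Myl7 was listed at 0 in every limb library and ranged from 0.1942 to 13.26 TPM in diaphragm, and Nppa did not exceed 2.634 TPM. Genes above 0 numbered 16436 to 19456 per library, and sequencing depth is unknown because every column sums to 1000000. Libraries also differed in a pseudogene, Pcna-ps2, that was at 1 TPM or more in some (high state) and below it in others (low state). In both limb muscles all CAC libraries were of the high state and all NON-CAC libraries of the low state, so this split and the melanoma cannot be told apart there. In diaphragm the high state held 9 of 10 CAC mock, 8 of 10 CAC rFibcd1, 3 of 9 NON-CAC mock and 6 of 10 NON-CAC rFibcd1 libraries. Across the 9 genes, Dia CAC rFibcd1 column 1 and TA CAC column 8 stood above the rest of their groups, with a mean deviation of 1.93 and 1.33 on the log2 scale. Dia CAC mock column 32 was next, at 1.28, with the next of its group at 0.568. Without it the mock diaphragm differences given below were 0.37 for Ankrd1, 1.80 for Ankrd2, 0.24 for Ankrd23, -0.11 for Csrp3, 0.07 for Xirp1, 0.34 for Rrad, 0.30 for Mybph and -2.37 for Actc1, with a change of sign for Csrp3. The share of mitochondrial transcripts in TPM was lower with CAC in every muscle: 24.1 to 34.58% against 38.96 to 44.04% in SOL, 25.07 to 45.62% against 47.3 to 51.67% in TA and 32.88 to 41.61% against 41.89 to 51.94% in mock diaphragm, without overlap, and 29.82 to 46.44% against 39.27 to 49.01% in rFibcd1 diaphragm, with overlap. Its part in the melanoma effects given below was not tested. In TA CAC column 8 it was 25.07% against 38.89% or more in the rest of its group, and the summed denervation markers were at 97.41 TPM against 19.68 to 26.18 TPM. In Dia CAC rFibcd1 column 1 the macrophage markers summed to 2743 TPM, the highest of all libraries, and the denervation markers to 96.94 TPM. Values without Dia CAC rFibcd1 column 1 and TA CAC column 8, the 2 libraries of high Ankrd1, a choice made after they were seen, are given where they matter. In bulk muscle, a change in the RNA of each fibre and a change in the number of fibres cannot be told apart.

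**Figure D1:**
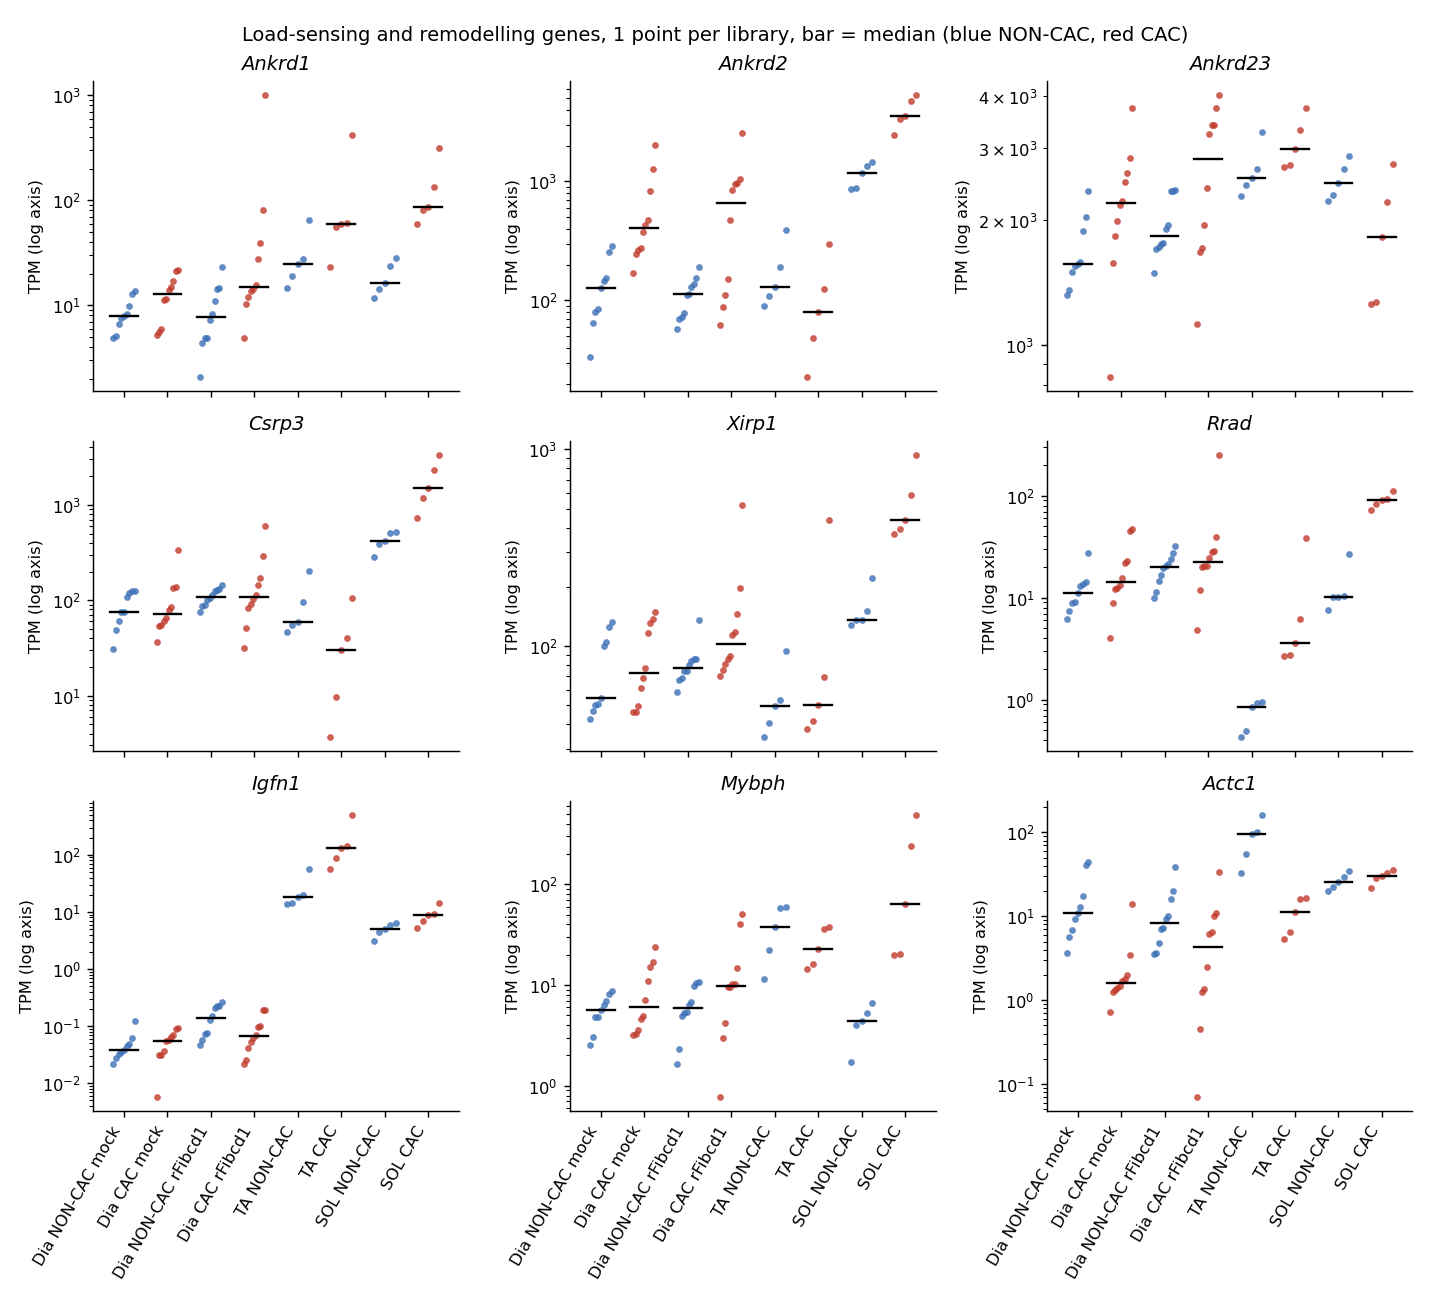
TPM (log axis, with its own range in each panel) of the 9 genes in every library of the 8 groups, NON-CAC in blue and CAC in red, with the group median as a bar. Ankrd1, Ankrd2, Csrp3, Xirp1, Rrad and Mybph of SOL CAC lay above all SOL NON-CAC libraries, and Igfn1 was below 0.27 TPM throughout the diaphragm.

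The ankyrin repeat genes come first. Ankrd1 (chr19:36111961-36120099, minus strand, GRCm38) encodes CARP, a titin-binding protein scarce in resting muscle and induced by damage and stretch. In soleus it stood at 11.65, 14.38, 16.21, 23.48 and 28.17 TPM with the NON-CAC melanoma and at 58.97, 80.21, 87.1, 133.2 and 317.3 TPM with the CAC melanoma. The groups did not overlap, and the medians differed 5.37-fold (log2 fold change 2.58 ± 0.396, SE). In TA it stood at 14.72, 18.85, 24.79, 27.4 and 65.09 TPM (NON-CAC) and at 23.22, 55.37, 59.35, 60.71 and 415.4 TPM (CAC, the last in column 8). These groups overlapped, with only column 8 above all NON-CAC libraries, and the log2 difference of 1.43 ± 0.620 was 0.80 without that library. In mock-treated diaphragm the level was lower altogether, from 4.865 (median 7.91) to 13.78 TPM with NON-CAC and from 5.245 (median 12.82) to 21.84 TPM with CAC, and the log2 difference was 0.46 ± 0.544.

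Ankrd2 encodes a protein that senses stretch mainly in slow fibres, and it lies on the same chromosome (chr19:42036000-42045110, plus strand). In soleus it was at 861.9, 875.6, 1186, 1352 and 1464 TPM with NON-CAC and at 2444, 3371, 3535, 4774 and 5316 TPM with CAC. Every CAC library was above every NON-CAC library (log2 fold change 1.74 ± 0.221). In TA the order of the medians was the opposite: the NON-CAC libraries were at 89.96, 108, 129.7, 191.3 and 389.8 TPM and the CAC libraries at 22.83, 48, 80.35, 125.2 and 299 TPM, with overlap and a log2 difference of -0.95 ± 0.587. In mock-treated diaphragm it ranged from 33.53 (median 127.4) to 284.6 TPM with NON-CAC and from 168.5 (median 404.7) to 2015 TPM with CAC, where 6 of 10 libraries lay above all NON-CAC ones (log2 fold change 2.03 ± 0.542, or 2.74 among high-state libraries and 0.79 among low-state libraries, which hold 1 CAC library). The effect in diaphragm minus that in TA was 2.98 on the log2 scale.

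Ankrd23 (chr1:36530188-36536883, minus strand) encodes DARP, the third of the family, known for a link to energy stress. It was at 836.8 to 4018 TPM over all libraries, and in soleus with CAC its median was below that of Ankrd2. In soleus the median was 2463 TPM (2233 to 2862) with NON-CAC and 1819 TPM (1257 to 2735) with CAC, where 4 of 5 libraries were below all NON-CAC libraries (log2 difference -0.49 ± 0.203). In TA the median was 2536 TPM (2289 to 3272) with NON-CAC and 2973 TPM (2697 to 3744) with CAC, a difference of 0.23 ± 0.126 that turned to -0.28 with median-ratio scaling. The mock diaphragm difference was 0.34 ± 0.207. Of the 50-base stretches of Ankrd23 transcripts, 75% also occur in Gm42417, an overlapping gene on the same strand, so the reads of these genes may not be separable, and Gm42417 is not among the symbols of the table.

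Csrp3 and Xirp1 are the pair at the Z-disc. Csrp3 (chr7:48830398-48848033, minus strand) is a LIM protein that binds α-actinin and telethonin and is most abundant in slow fibres and heart. In soleus its NON-CAC libraries were at 280.8, 389.4, 418.3, 507.6 and 515.4 TPM and its CAC libraries at 734.5, 1173, 1516, 2342 and 3316 TPM, without overlap (log2 fold change 1.94 ± 0.347). In TA the NON-CAC libraries were at 46.57, 55.01, 58.73, 96.45 and 200.6 TPM and the CAC libraries at 3.691, 9.629, 30.08, 39.9 and 105.6 TPM. There 4 of 5 CAC libraries were below all NON-CAC ones and the fifth, column 8, was among them (log2 difference -1.77 ± 0.707, or -2.32 without column 8). In mock diaphragm the medians were 75.69 TPM (NON-CAC) and 71.87 TPM (CAC), and the difference was 0.11 ± 0.373. The effect in TA minus that in SOL was -3.71 on the log2 scale, and -4.26 without column 8.

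Xirp1 (chr9:120013755-120023598, minus strand) encodes Xin, an actin-binding protein that gathers at myotendinous junctions and at sites of fibre damage. Soleus gave 128.3 to 221.5 TPM (median 136.2) with NON-CAC and 370 to 933.9 TPM (median 436.9) with CAC, without overlap (log2 fold change 1.75 ± 0.242). In TA the medians were 49.41 and 49.86 TPM, and the difference of 0.55 ± 0.563 came from column 8, at 435 TPM, since it was -0.08 without it. In mock diaphragm the difference was 0.17 ± 0.293.

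Rrad (chr8:104628070-104631327, minus strand) is a small GTPase of the RGK family, which holds back calcium channels and is induced in injured and denervated muscle. TA NON-CAC libraries were at 0.4329, 0.4897, 0.8558, 0.9268 and 0.9538 TPM and TA CAC libraries at 2.713, 2.745, 3.567, 6.132 and 38.19 TPM. Soleus libraries were at 7.554, 10.23, 10.23, 10.51 and 26.71 TPM with NON-CAC and at 72.2, 82.8, 91.24, 92.7 and 110.7 TPM with CAC. The groups did not overlap in either limb muscle, and the log2 differences were 2.04 ± 0.530 in TA (1.43 without column 8) and 2.81 ± 0.261 in SOL, the TA value being understated by the pseudocount of 1 at such low levels. In mock diaphragm 4.074 to 47.7 TPM with CAC spanned the whole NON-CAC range of 6.25 to 27.72 TPM (log2 difference 0.51 ± 0.416, or 0.05 among high-state and -0.04 among low-state libraries). Rrad and Igfn1 were the members above all NON-CAC libraries in TA.

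Igfn1 (chr1:135953578-136006342, minus strand) encodes a large Z-disc protein of skeletal muscle that binds the KY protein and filamins. In TA it was at 13.61, 14.57, 18.04, 19.43 and 55.37 TPM with NON-CAC and at 57.6, 87.07, 133.1, 140.7 and 492.3 TPM with CAC, without overlap (7.38-fold between medians, log2 fold change 2.65 ± 0.511). In soleus it was low, at 3.08 to 6.439 TPM with NON-CAC and 5.316 to 14.23 TPM with CAC, where 4 of 5 libraries were above all NON-CAC ones (log2 difference 0.71 ± 0.225). In diaphragm it lay between 0.00572 and 0.2637 TPM in all 39 libraries and did not pass the filter on low values. Igfn1 and Ankrd23 were the members whose fold change was higher in the fast TA than in the slow soleus, and that of Ankrd23 was small in both.

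Mybph (chr1:134193448-134201232, plus strand) encodes a myosin-binding protein H of the thick filament. Its NON-CAC soleus libraries were at 1.724, 3.981, 4.4, 5.247 and 6.637 TPM and its CAC soleus libraries at 20.06, 20.56, 63.89, 242.9 and 485.1 TPM. The CAC libraries differed from each other by over an order of magnitude, yet all lay above the NON-CAC ones (14.5-fold between medians, log2 fold change 3.99 ± 0.790). In TA it was at 11.57 to 60.23 TPM (median 37.8) with NON-CAC and 14.33 to 37.39 TPM (median 22.92) with CAC, a range within a range (log2 difference -0.44 ± 0.423, or -0.27 without column 8). In mock diaphragm the medians were 5.632 and 5.99 TPM (log2 difference 0.42 ± 0.436). The difference was -0.14 among high-state libraries and 2.17 among low-state libraries, which hold 1 CAC library. Mybph shares 1162 exon bases with Adora1 on the opposite strand, and Adora1 did not exceed 8.428 TPM in any library.

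Actc1 (chr2:114047282-114053548, minus strand) went the other way. In TA it was at 33.04, 54.95, 95.2, 102.2 and 159.9 TPM with NON-CAC and at 5.421, 6.546, 11.29, 15.89 and 16.58 TPM with CAC, without overlap (log2 fold change -2.81 ± 0.403). In mock diaphragm it ranged from 3.672 (median 11.02) to 44.41 TPM with NON-CAC and from 0.7204 (median 1.59) to 14.09 TPM with CAC. There 9 of 10 CAC libraries lay below all NON-CAC ones, and the exception, column 32, was also the highest CAC mock library for Ankrd1, Ankrd2, Ankrd23, Csrp3, Xirp1 and Rrad (log2 fold change -2.12 ± 0.520, or -3.23 among high-state and -1.88 among low-state libraries). In soleus the groups lay on each other, at 20.09 to 35.07 TPM with NON-CAC and 21.49 to 35.33 TPM with CAC (log2 difference 0.16 ± 0.163).

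Set side by side, the 9 genes gave 6 members in soleus whose CAC libraries were all above the NON-CAC ones, against 14.6% of the 11957 genes tested there. In TA 2 members were above (against 49.1% of 11105 genes) and 1 was below (against 2.55%). In mock diaphragm no member was free of overlap (against 4.07% above and 0.290% below of 13426 genes). Because the genes were picked for these effects, nothing is read from those counts. The median log2 difference over the members was 1.75 in SOL, 0.23 in TA and 0.38 in mock diaphragm, beside 0.09, 0.41 and 0.20 over all genes tested. The shift of all genes, which median-ratio scaling brings to about 0, was thus largest in TA. The plot of melanoma effects shows the members by muscle.

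**Figure D2:**
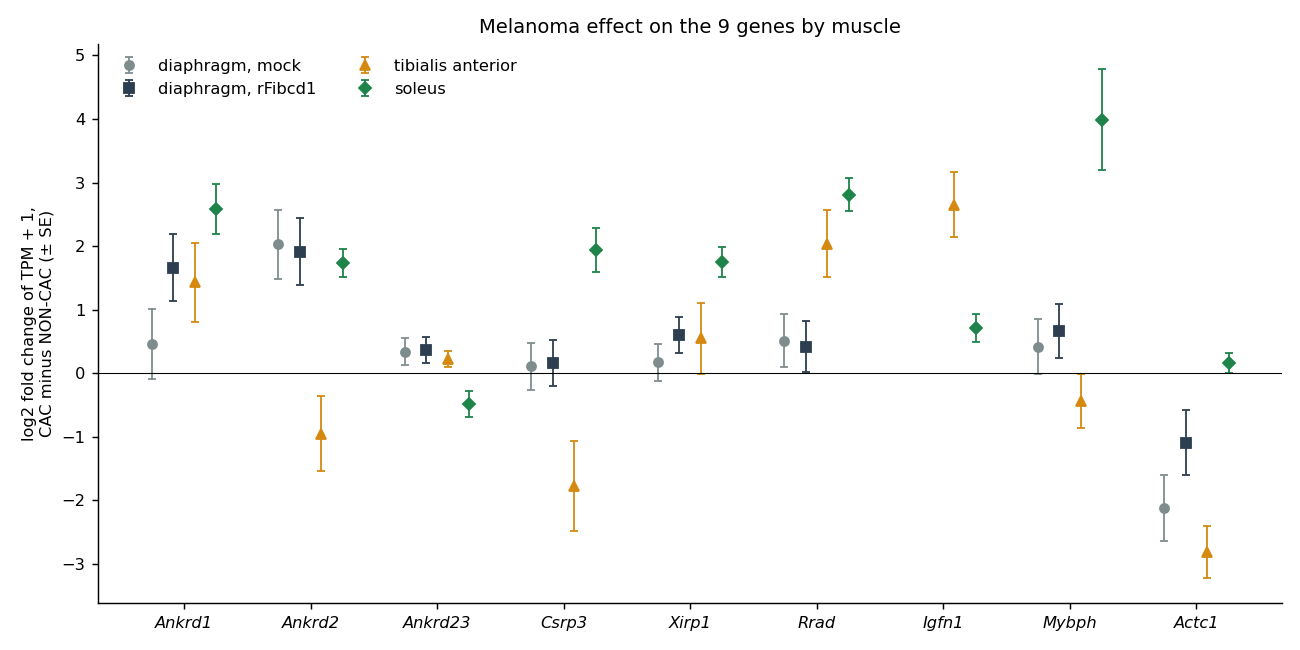
Log2 fold change of TPM + 1 (CAC minus NON-CAC, ± SE) for each gene in mock diaphragm (grey circles), rFibcd1 diaphragm (dark squares), TA (orange triangles) and SOL (green diamonds). Ankrd2, Csrp3 and Mybph lie above 0 in soleus and below 0 in TA, while Actc1 lies below 0 in TA and diaphragm and near 0 in soleus. Igfn1 has no diaphragm point because it was below the filter.

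Markers of other cell types and states moved in the same muscles, and their part in the members' differences was not tested. Counts are of markers called among those tested, beside the share of all genes called (in SOL 17.5% higher and 7.54% lower, in TA 56.4% and 3.78%, in mock diaphragm 30.9% and 2.67%). The tendon markers summed to 167.8 to 278.8 TPM in SOL NON-CAC and 29.26 to 90.3 TPM in SOL CAC libraries, and 5 of 6 were called lower there, 3 of 5 in TA, where 1 was higher, and 2 of 5 in mock diaphragm, and the counts of lower markers were the same with median-ratio scaling. The smooth-muscle markers summed to 1718 to 2189 TPM and 4349 to 10330 TPM in SOL, and to 852.8 to 1154 TPM and 2418 to 4726 TPM in TA, without overlap, with 1 of 6 and 2 of 5 called higher (and 1 lower in each with median-ratio scaling). In mock diaphragm they summed to 1178 to 1857 TPM and 1536 to 4407 TPM, with 4 of 6 higher (2 higher and 1 lower with median-ratio scaling). The smooth-muscle list holds Des, which is counted again below among the Z-disc, I-band and M-band genes. Des was the only marker of this list called in SOL, and Des and Acta2 were those called in TA.

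The denervation markers summed to 48.23 to 71.97 TPM and 65.29 to 127.4 TPM in SOL (2 of 4 higher), to 10.29 to 15.89 TPM and 19.68 to 97.41 TPM in TA (2 of 3, and 0 with median-ratio scaling) and to 18.19 to 29.97 TPM and 28.24 to 61.36 TPM in mock diaphragm (4 of 5, and 3). The markers of regenerating or embryonic fibres summed to 68.64 to 120.4 TPM and 161.5 to 225.1 TPM in SOL (2 of 6 higher) and to 27.58 to 100.1 TPM and 99.78 to 205 TPM in TA (3 of 6, and 0 higher and 1 lower with median-ratio scaling), with 3 of 7 higher in mock diaphragm. Heart markers did not overlap in either limb muscle, at 1126 to 1598 TPM and 1988 to 3483 TPM in SOL (2 of 3 higher) and at 3.108 to 5.984 TPM and 16.14 to 33.66 TPM in TA (3 of 3, and 1 with median-ratio scaling), though Nppa, Nppb, Myl7, Tnni3 and Ryr2 stayed below 1 TPM in all limb libraries. The SOL sums therefore came almost wholly from Myh6, Myl4 and Sln. Myl4 is also on the list of regenerating or embryonic fibres. In mock diaphragm 2 of 5 heart markers were higher. All 5 macrophage markers tested in TA were called higher (3 with median-ratio scaling), with sums of 21.35 to 40.73 TPM and 33.07 to 246.1 TPM, against 1 of 6 in SOL and 2 of 6 in mock diaphragm. Of the 8 fast-fibre markers none was called in SOL, 2 were higher and 2 lower in TA (0 and 2 with median-ratio scaling) and 2 were higher in mock diaphragm (0). Of the 8 slow-fibre markers 3 were higher in SOL (0 with median-ratio scaling), 5 higher and 2 lower in TA (2 and 3) and 2 higher in mock diaphragm (0).

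CAC was also compared with NON-CAC diaphragm after rFibcd1, to see how the melanoma effect on the 9 genes stood in treated mice. These 20 libraries entered none of the fold changes above, but the 39 diaphragm libraries shared 1 estimate of the spread, so they did enter the standard errors and calls given for mock diaphragm. The genes were, however, chosen with results of all groups known, so the adjusted p below are not independent evidence. Ankrd2 and Ankrd1 were called higher in the CAC libraries, 2 of the 8 members tested, where 9.11% of all 13426 genes were called (7.14% higher), with limma and Benjamini-Hochberg adjustment. Ankrd2 was at 57.48 (median 112.9) to 192.6 TPM in NON-CAC libraries and at 62.73 (median 656.9) to 2548 TPM in CAC libraries, a log2 fold change of 1.91 ± 0.527 (adjusted p = 0.0188). Of the 10 CAC libraries, 6 lay above all NON-CAC ones at 470.1 TPM or more, and the other 4 (columns 2, 16, 17 and 18) lay at 62.73 to 150.9 TPM, inside the NON-CAC range. Arntl, a clock gene, was at 13.72, 6.126, 32.6 and 14.16 TPM in those 4 libraries and at 1.43 to 13.16 TPM in the 6. In the NON-CAC libraries Arntl was at 13.32 to 33.46 TPM. Its part in this comparison was not tested. Ankrd1 was at 2.085 (median 7.759) to 22.99 TPM and at 4.923 (median 14.86) to 1003 TPM, a log2 fold change of 1.66 ± 0.529 (adjusted p = 0.0412), with 4 of 10 CAC libraries above all NON-CAC ones.

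Both calls depended on the fit. Without the 2 libraries of high Ankrd1 the fold change of Ankrd1 was 1.09 (adjusted p = 0.0631) and that of Ankrd2 1.79 (adjusted p = 0.0377), and with limma fitted to only the 2 groups compared the adjusted p were 0.169 and 0.0668. By the Dunn test the adjusted p were 0.154 and 0.147, so that neither passed. The study used that test with a fold-change cutoff and states no such adjustment, and its figure counted fewer CAC diaphragms. Unadjusted, 2 of the 8 members tested were under the threshold by the Dunn test. With library state as a term in limma, Ankrd2 was called (2.09, adjusted p = 0.00829) and Ankrd1 was not (1.51, adjusted p = 0.0581).

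In the fit of 39 libraries the remaining members did not pass, although Actc1 did with library state as a term (-1.37, adjusted p = 0.0419). Without that term Actc1 gave -1.09 ± 0.507 (adjusted p = 0.169), with 5 of 10 CAC libraries, at 0.0703 to 2.498 TPM, below all NON-CAC libraries (3.512 to 38.95 TPM). The CAC libraries low in Ankrd2 were among the 5 with the highest Actc1: columns 2, 17, 16 and 18 held 6.121, 6.531, 10.82 and 33.64 TPM. Xirp1 gave 0.60 ± 0.285 (adjusted p = 0.183), Ankrd23 0.37 ± 0.201 (adjusted p = 0.253), Mybph 0.66 ± 0.425 (adjusted p = 0.339), Rrad 0.42 ± 0.405 (adjusted p = 0.548) and Csrp3 0.16 ± 0.363 (adjusted p = 0.828). The median over the 8 members was 0.51, beside 0.08 over all genes.

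The mock libraries of the rFibcd1-against-mock comparisons had already served to choose the genes, so their values are given without a test. In CAC mice the log2 difference, rFibcd1 minus mock, was 1.17 for Ankrd1, 0.64 for Actc1, 0.59 for both Xirp1 and Rrad, 0.51 for Csrp3, 0.32 for Mybph, 0.24 for Ankrd23 and -0.24 for Ankrd2. The direction for Ankrd2 depended on the summary, since its mean TPM was 724.7 with rFibcd1 and 636 with mock and its ratio of medians 1.62. Without CAC rFibcd1 column 1 these became 0.59 for Ankrd1, 0.51 for Actc1, 0.35 for Xirp1, 0.23 for Rrad, 0.26 for Csrp3, 0.07 for Mybph, 0.25 for Ankrd23 and -0.36 for Ankrd2. In NON-CAC mice it was 0.68 for Rrad, 0.47 for Csrp3, 0.21 for Ankrd23, 0.16 for Xirp1, 0.08 for Mybph, -0.03 for Ankrd1, -0.12 for Ankrd2 and -0.38 for Actc1. The adjusted threshold was passed by 0.0447% of all genes in CAC and 0.417% in NON-CAC diaphragm. Arntl was at 1.344 to 14.6 TPM in NON-CAC mock and 13.32 to 33.46 TPM in NON-CAC rFibcd1 libraries. In CAC it was at 1.744 to 23.5 TPM with mock and 1.43 to 32.6 TPM with rFibcd1, and its part was not tested.

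Levels in the different muscles are described here by group, with diaphragm meaning mock-injected diaphragm unless rFibcd1 is named, and without a test of single genes, because each muscle's level contains the melanoma effect on which the genes were picked. With the NON-CAC melanoma, Ankrd2 had medians of 1186 TPM in SOL, 127.4 TPM in mock diaphragm and 129.7 TPM in TA, and every soleus library was above those of both other muscles. Csrp3 stood the same way, at medians of 418.3, 75.69 and 58.73 TPM in SOL, diaphragm and TA, also with soleus above all other libraries. Diaphragm and TA overlapped in both genes. With the CAC melanoma soleus was again above all libraries of TA and mock diaphragm in Ankrd2 and Csrp3, whereas 1 rFibcd1 diaphragm library (column 11, at 2548 TPM) exceeded the lowest soleus library (2444 TPM) for Ankrd2. There the diaphragm median exceeded that of TA for Ankrd2 (404.7 against 80.35 TPM) and Csrp3 (71.87 against 30.08 TPM), with overlap.

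The order of muscles was not shared by Rrad and Igfn1. Rrad was lowest in TA with the NON-CAC melanoma, where all TA libraries were below 1 TPM, while diaphragm and soleus overlapped, at medians of 11.1 and 10.23 TPM. With CAC the lowest soleus library (72.2 TPM) was above the highest of mock diaphragm (47.7 TPM) and of TA (38.19 TPM), though not above rFibcd1 diaphragm column 1, at 249.4 TPM. Xirp1 had NON-CAC medians of 136.2 TPM in SOL, 54.4 TPM in diaphragm and 49.41 TPM in TA, and soleus overlapped diaphragm but not TA. Igfn1 was ordered TA, soleus, diaphragm under both melanomas without overlap, from medians of 18.04, 5.015 and 0.03884 TPM with NON-CAC to 133.1, 8.948 and 0.05554 TPM with CAC.

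For Mybph, Actc1 and Ankrd1 the order of the limb medians turned with the melanoma. Mybph of NON-CAC mice was higher in every TA library (median 37.8 TPM) than in any of soleus (4.4 TPM) or diaphragm (5.632 TPM). With CAC the soleus median, 63.89 TPM, was above that of TA, 22.92 TPM, with overlap. Actc1 had NON-CAC medians of 95.2 TPM in TA, 25.86 TPM in SOL and 11.02 TPM in diaphragm, whereas with CAC every soleus library was above every TA library (medians 29.94 and 11.29 TPM). Ankrd1 had NON-CAC medians of 24.79, 16.21 and 7.91 TPM in TA, SOL and diaphragm. Its CAC medians were 59.35 TPM in TA and 87.1 TPM in SOL, and the limb muscles overlapped under both melanomas. With CAC all limb libraries were above all mock diaphragm libraries, while 4 of the 10 rFibcd1 diaphragm libraries, at 27.43 to 1003 TPM, were above the lowest of TA (23.22 TPM). Ankrd23 had medians of 1569 to 2536 TPM over the NON-CAC muscles.

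Averaged over both melanomas, the limma fit called 6 of the 9 genes between TA and SOL, against 69.1% of all 13501 genes, and 8 of 9 between diaphragm and TA, against 77.9%. It called 8 of 9 lower in diaphragm than in soleus, against 27.2% of all genes. These averages take in the CAC libraries that guided the choice, and Igfn1 passed the filter on low values only through the limb muscles, so nothing is read from the counts.

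**Figure D3:**
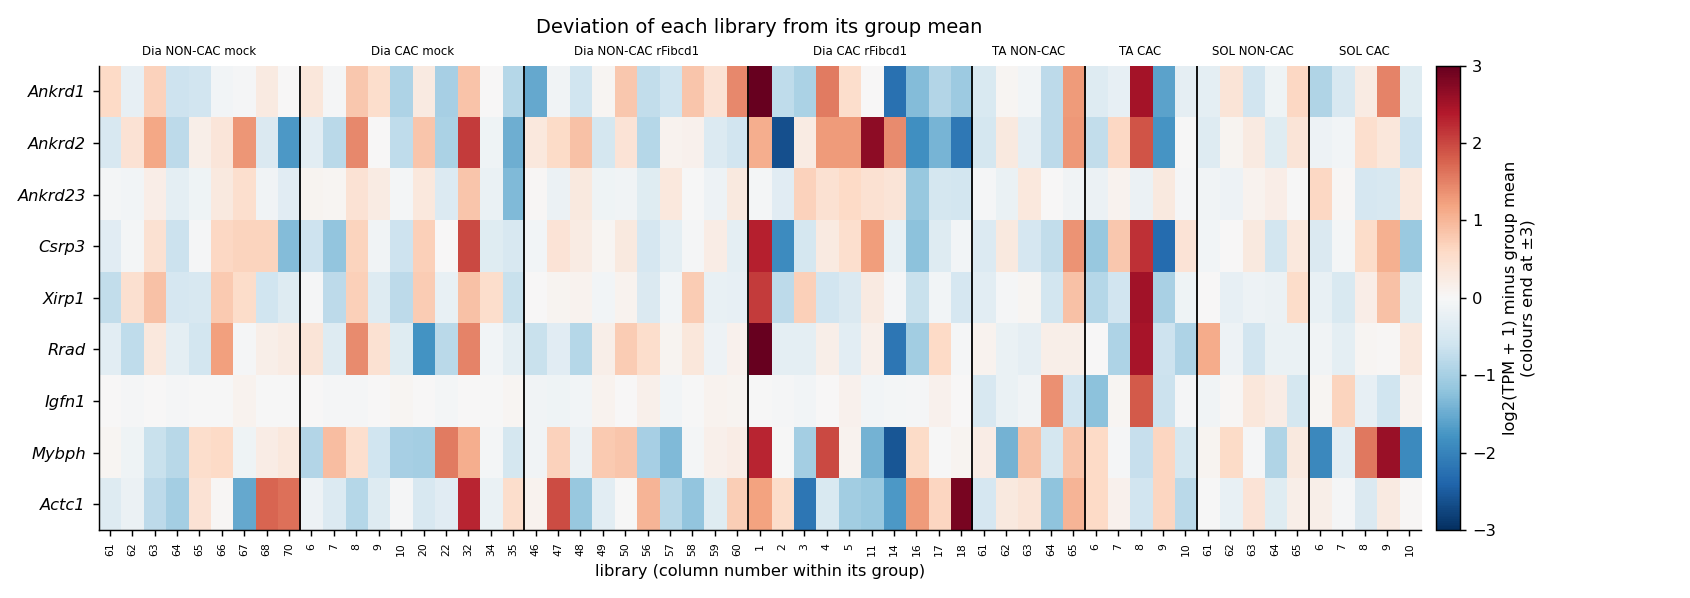
Deviation of every library from its group mean, log2(TPM + 1), for the 9 genes (rows) and 59 libraries (columns, grouped and numbered by column heading), red above and blue below, with colours ending at ±3. Dia CAC rFibcd1 column 1 and TA CAC column 8 are red in most rows, and Dia CAC rFibcd1 columns 2, 16, 17 and 18 are blue for Ankrd2 and white to red for Actc1.

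Within groups, the members did not vary as a block. Over the 59 libraries, deviations from the group mean had a Pearson r of 0.796 between Ankrd2 and Csrp3, 0.745 between Csrp3 and Xirp1, 0.703 between Ankrd1 and Rrad and 0.639 between Ankrd2 and Xirp1. Without the 2 libraries of high Ankrd1, Ankrd2 with Csrp3 stayed at 0.796 and Csrp3 with Xirp1 at 0.645, while Ankrd1 with Rrad was 0.474. Pairs also differed between 38 diaphragm and 19 limb libraries, at 0.785 and -0.4 for Ankrd2 with Ankrd23, 0.801 and 0.952 for Ankrd2 with Csrp3, and 0.24 and 0.876 for Ankrd1 with Xirp1. Actc1 gave -0.453 in diaphragm and 0.195 in limb libraries with Ankrd2, and -0.464 and 0.111 with Ankrd23. All these points share a library and its composition, and no p is attached.

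The genes whose level was most like each member over the 59 libraries, among 8754 genes with a mean of 5 TPM or more, were named by Pearson r. Ankrd2 was nearest to Hspb7, a small heat shock protein of muscle (r = 0.928, and 0.862 for deviations within groups), Otulin (0.893 and 0.809) and Hspa1l (0.884 and 0.83). Xirp1 was nearest to Flnc, the muscle filamin (0.936 and 0.896), Tnfrsf12a (0.923 and 0.851) and Rnf115 (0.896 and 0.834). Csrp3 was nearest to Dnaja4 (0.91 and 0.731), Actn2, the α-actinin of all fibres (0.905 and 0.744), and Cryab (0.899 and 0.677). Ankrd1 was nearest to Pdlim3 (0.832 and 0.66), Mustn1 (0.798 and 0.678) and Asb5 (0.778 and 0.666), and Mybph to Obsl1 (0.791 and 0.626), Pdlim3 (0.715 and 0.423) and Xirp2 (0.713 and 0.638).

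Igfn1 was alike to its nearest genes mainly between groups. Igfn1 with Hdgf had r = 0.944 overall and 0.513 within groups, with Zfand3 0.924 and 0.282, and with Ttll7 0.924 and 0.104. Rrad was nearest to Magoh (0.879 and 0.738), Itga5 (0.877 and 0.612) and Cct3 (0.858 and 0.672), and Actc1 to Ppm1j (0.769 and 0.429), Agbl1 (0.721 and 0.346) and Lrrc38 (0.719 and 0.384). Ankrd23 was nearest to Gm43543 (0.708 and 0.695), Tmod4 (0.598 and 0.418) and Polb (0.597 and 0.591).

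The 9 genes were then set beside 32 genes of the Z-disc, I-band and M-band. This list, like all lists here, was chosen with earlier results of these data known. The counts and adjusted p of the lists are therefore not independent evidence. In the limb muscles library state and melanoma cannot be told apart, for the lists as for the 9 genes. In soleus 19 of the 32 were called higher with the CAC melanoma and none lower, against 17.5% and 7.54% of all genes (limma, Benjamini-Hochberg). Des, the desmin of intermediate filaments, rose by 1.66 ± 0.207 (adjusted p = 0.000375), Flnc by 1.18 ± 0.187 (adjusted p = 0.00153), Hspb7 by 1.16 ± 0.209 (adjusted p = 0.00293) and Smpx by 0.84 ± 0.149 (adjusted p = 0.00275). The median over the list was 0.49. With median-ratio scaling 15 were higher and none lower.

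In TA 14 of the 31 tested were called higher and 5 lower, against 56.4% and 3.78% of all genes, with a median of 0.13 beside 0.41 over all genes. Lower were Fhl1, a LIM protein of the titin N2B region (-1.38 ± 0.183, adjusted p = 0.000366), Actn2 (-0.91 ± 0.189, adjusted p = 0.00368) and Cryab, a small heat shock protein (-0.62 ± 0.188, adjusted p = 0.017). These 3 were higher in soleus, Fhl1 by 0.70 ± 0.181 (adjusted p = 0.0164), Actn2 by 0.53 ± 0.113 (adjusted p = 0.00651) and Cryab by 0.84 ± 0.194 (adjusted p = 0.00947). The other genes lower in TA, Myoz3 (-1.23 ± 0.468, adjusted p = 0.0395) and Ldb3 (-0.55 ± 0.143, adjusted p = 0.00928), both of the Z-disc, were not called in soleus, at -0.45 (adjusted p = 0.221) and 0.29 (adjusted p = 0.12). Among those higher in TA were Trim63 (MuRF1), a ubiquitin ligase of the M-band that marks atrophy (2.00 ± 0.376, adjusted p = 0.00235), Des (1.66 ± 0.173, adjusted p = 8.7e-05) and Ttn, titin itself (0.68 ± 0.108, adjusted p = 0.000957). The TA counts depended on scaling: with median-ratio scaling 3 were higher and 13 lower.

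In mock diaphragm 7 of the 32 were called higher and 2 lower, against 30.9% and 2.67% of all genes, and with median-ratio scaling 1 was higher and 4 lower. Des was higher (1.05 ± 0.202, adjusted p = 0.000264), and the lower ones were Fhl2 (-1.02 ± 0.279, adjusted p = 0.00561) and Ky, the partner of Igfn1 (-1.43 ± 0.382, adjusted p = 0.00465). After rFibcd1 the list gave 1 called gene of 32 in CAC against NON-CAC diaphragm, against 9.11% of all genes: Des (0.82 ± 0.197, adjusted p = 0.00763). It gave 2 without the 2 libraries of high Ankrd1, and 1 higher and 1 lower with median-ratio scaling.

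**Figure D4:**
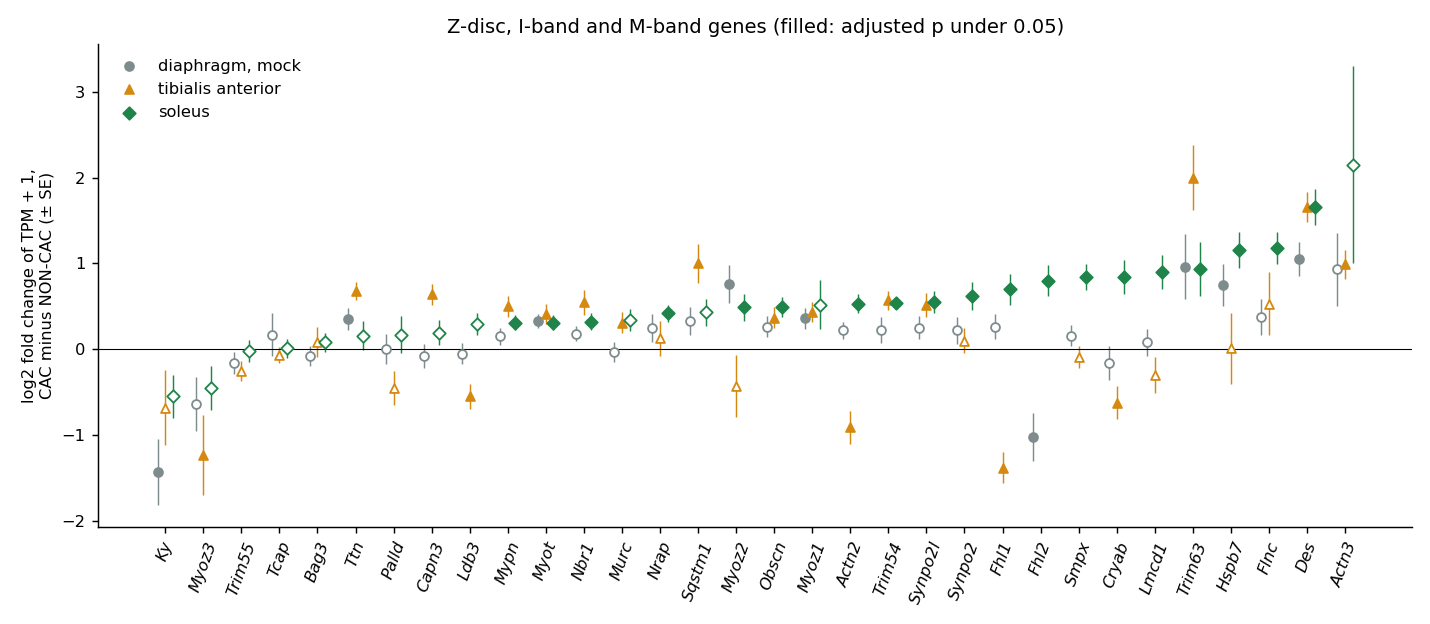
Log2 fold change of TPM + 1 (CAC minus NON-CAC, ± SE) of 32 Z-disc, I-band and M-band genes in mock diaphragm (grey), TA (orange) and SOL (green), ordered by the soleus value, with filled symbols for an adjusted p under 0.05. In soleus 19 genes are filled and above 0, whereas Fhl1, Actn2 and Cryab are filled below 0 in TA. Fhl2 has no TA point because it was below the filter there.

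Relatives from the members' own families were fewer. In soleus 3 of 12 tested were called higher and none lower, against 17.5% and 7.54% of all genes (2 higher and 1 lower with median-ratio scaling): Xirp2 (1.18 ± 0.329, adjusted p = 0.0231), the paralog of Xirp1, Csrp2 (0.65 ± 0.218, adjusted p = 0.047), and Acta1, the adult skeletal actin (0.44 ± 0.137, adjusted p = 0.0371). In TA 5 of 11 were higher and 3 lower, against 56.4% and 3.78% (2 higher and 4 lower with median-ratio scaling), the latter being Acta1 (-0.87 ± 0.234, adjusted p = 0.0105), Mybpc1 (-0.60 ± 0.239, adjusted p = 0.0456) and Xirp2 (-0.29 ± 0.111, adjusted p = 0.042). Acta1 and Actc1 were thus both lower in TA, while in mock diaphragm Acta1 gave 0.34 ± 0.144 (adjusted p = 0.0684) where Actc1 was at -2.12. In mock diaphragm 6 of 12 relatives were called higher and none lower, against 30.9% and 2.67%, and 3 were higher with median-ratio scaling.

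The targets of YAP and SRF, the factors tied to the M-CAT element and the CArG box, gave 3 higher and 2 lower of 12 in soleus, against 17.5% and 7.54% of all genes. They gave 4 higher and 1 lower in TA, against 56.4% and 3.78%, and 3 higher in mock diaphragm, against 30.9%. Junb, an immediate-early gene, was higher in all 3 muscles, by 1.60 ± 0.213 in SOL (adjusted p = 0.000567), 2.17 ± 0.276 in TA (adjusted p = 0.000283) and 1.54 ± 0.260 in mock diaphragm (adjusted p = 7.56e-05). After rFibcd1 it was higher in CAC diaphragm too (1.09 ± 0.253, adjusted p = 0.00654), as was Tagln, the smooth-muscle transgelin (0.58 ± 0.184, adjusted p = 0.0409), and without the 2 libraries of high Ankrd1 Junb alone was called. Srf itself stayed within 0.19 of 0 in every muscle and passed in none. The medians of this list moved with scaling, and its counts were 1 higher and 2 lower in soleus, 3 and 3 in TA, and 2 and 1 in mock diaphragm with median-ratio scaling.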

How the data were processed

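RNA-seq was made from 59 muscle libraries in 8 groups. Values were deposited by the authors as TPM. Per the study's methods, reads were aligned to mouse GRCm38 (mm10) in CLC Genomics Workbench. Library kit and sequencer are named differently in the labels (stranded, HiSeq) and the methods (NovaSeq), which was not resolved. TPM keeps no depth, so no counting interval was computed. Columns carry a group but no labelled replicate, and nothing ties the numbers to labelled mice.

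Here log2(TPM + 1) was compared with limma 3.58.1 (R 4.3.3, eBayes with trend, two-sided, Benjamini-Hochberg over all genes tested, threshold 0.05). Genes were kept at 1 TPM in as many libraries as the smallest group holds. The 39 diaphragm libraries shared 1 fit, TA and SOL (10 each) were fitted apart, and muscle levels used the 39 libraries without rFibcd1. The study's Dunn test, here with the same adjustment, was an alternative. The fits were tested on simulated data.

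The 9 genes and all lists were chosen with earlier results of these data known. The named genes were the 9 members, the 3 most alike per member by Pearson r, and genes of the fixed lists. Pcna-ps2 and Arntl were named to describe libraries. Alternatives were the pseudocount, filters, scaling, fits of 2 groups, library state, the column number as a block and leaving out each library.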

Additional observations from a re-analysis of the deposited data

Results flagged for a closer look

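Of the 72 pairs of a gene and a group, 10 held a library set apart from the others of its group by Dixon's criterion, which chance gives in about 1 of 20. Dia CAC rFibcd1 column 1 was set apart in 3 genes: Ankrd1 at 1003 TPM (next 81.34), Xirp1 at 521.8 TPM (next 197.9) and Rrad at 249.4 TPM (next 39.01). TA CAC column 8 was set apart in Xirp1 at 435 TPM (next 69.17) and Rrad at 38.19 TPM (next 6.132). In CAC mock diaphragm, column 32 held Actc1 at 14.09 TPM (next 3.505). The rest were NON-CAC libraries: Xirp1 in Dia rFibcd1 column 58 at 135.8 TPM (next 86.3), Rrad in SOL column 61 at 26.71 TPM (next 10.51), Igfn1 in TA column 64 at 55.37 TPM (next 19.43) and Igfn1 in mock diaphragm column 67 at 0.1211 TPM (next 0.06056).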

How the results depend on the processing

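Of 4358 alternative values of single genes, 23 lost the threshold, 6 gained it and 10 untested ones moved by more than 1 SD. The sign changed in 52, none of them a called value of a test. Of the 10 that moved, Ankrd23 in TA went to -0.28 with median-ratio scaling, and among low-state libraries Ankrd1 in mock diaphragm went to -0.51 and, for rFibcd1 in CAC diaphragm, Ankrd2 to 2.74 and Mybph to -3.24. The other 6 kept their sign: among low-state libraries Ankrd2 (0.79) and Mybph (2.17) in mock diaphragm and Ankrd23 (1.07) for rFibcd1 in CAC diaphragm, among high-state libraries Actc1 in mock diaphragm (-3.23), and between muscles Rrad (diaphragm minus TA, -2.35 with a pseudocount of 0.1) and Ankrd23 (TA minus SOL, 0.30 with median-ratio scaling). In the rFibcd1 diaphragm, the 2 genes called became 1 with no filter on low values and 1 without the 2 libraries of high Ankrd1. The count was 0 in a limma fit of only the 2 groups, 0 by the Dunn test and 0 among high-state libraries alone, where 3, 2 and 3 of 8 genes had an unadjusted p under the threshold. Among low-state libraries (2 CAC and 4 NON-CAC) it was 3: Ankrd2 (3.60), Ankrd23 (0.64) and Actc1 (-1.75). Leaving out each library in turn gave 1 to 3 genes, and it was 1 without CAC columns 1, 4 or 5 or NON-CAC columns 46, 47, 48, 49 or 57. In those fits the adjusted p of Ankrd2 ranged from 0.00454 to 0.0454 and that of Ankrd1 from 0.0156 to 0.0879. With library state as a term the 2 genes called were Ankrd2 (2.09, adjusted p = 0.00829) and Actc1 (-1.37, adjusted p = 0.0419), and Ankrd1 was at 1.51 (adjusted p = 0.0581). The cause of these changes was not tested.

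Members above 0 in mock diaphragm were 7 in all and 3 among low-state libraries, which hold 1 CAC library. Members above 0 for rFibcd1 in NON-CAC diaphragm were 5, and 3 with median-ratio scaling. For the muscle levels, the count of genes called with the column number as a replicate block was 6 (TA against SOL), 8 (diaphragm against TA) and 8 (diaphragm against SOL), as without the block, and it changed no other call. The 30 same-numbered pairs of libraries correlated at 0.0101 to 0.502, 28 of them over 0.1, against a median of -0.0447 in 210 other pairs, and the labels do not say whether a number marks a mouse. Within diaphragm no paired analysis was possible because the column numbers do not repeat. Depth is unknown, and values near 0 TPM, such as Igfn1 in diaphragm, cannot be bounded.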
